A study of Mus musculus with 20 samples.

Results

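Cones of conditional Dgcr8 knockout mice were compared with wild-type cones at postnatal day 60 (P60), in 2 knockout (KO) against 2 wild-type (WT) RNA-seq libraries of a series of 20. Of the 23077 gene symbols in the files, 10180 had a mean of at least 5 CPM over these 4 libraries and were tested, 44.1% of the symbols and at least 98.8% of the counts of each library. CPM are counts per 1000000 counts of the library, scaled here with TMM factors. The remaining 12897 symbols were below that level, 4069 of them at 0 in all 4 libraries. All mice were C57BL/6 and carried D4-cre, a transgene that drives Cre recombinase in cones. The KO mice also had a conditional Dgcr8 allele and the Cre-dependent tdTomato reporter Ai9, and the WT controls were labelled wild type, the P60 samples as D4-cre/Ai9 tdTomato and the protocol giving D4-cre animals with or without Ai9. Cones were collected from retina by fluorescence-activated cell sorting at P30, P40, P50, P60 and P90, with 2 libraries per genotype and age. The labels do not say that the 2 libraries of a group came from separate animals, so the p-values measure the spread between libraries, which may be technical.

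Cones are the photoreceptors of daylight and colour vision. Light changes an opsin, which activates the cone transducin and then a phosphodiesterase, and the drop in cyclic GMP closes the channels of the outer segment, while arrestin and a kinase shut the opsin off. DGCR8 binds the hairpins of primary microRNA transcripts and brings in the nuclease DROSHA, which cuts them out. Without it most microRNAs are not made, and the messages that they hold down are released.

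The WT P60 libraries held 10373206 and 9821447 counts and the KO P60 libraries 6729913 and 7994752, against 2237624 to 10373206 over all 20 libraries. The WT P60 libraries stood apart from the other WT libraries. Olfactory and vomeronasal receptor genes, 1396 symbols that retina does not use, held 0.00184% and 0.00192% of their counts, against 0.0203% and 0.0172% in KO P60 and 0.0552% to 0.159% in the 8 other WT libraries. Their summed cone markers were also the highest of all groups and several other cell types' markers the lowest, as given with the markers below. For this reason counts of calls are also given with the WT P60 libraries left out, the KO P60 libraries then being set against the mean of the 4 WT groups of other ages, an alternative chosen after the data were seen. In that comparison age and genotype cannot be told apart.

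Dgcr8 itself (chr16:18253948-18289246, minus strand, GRCm38) was at 75.8 and 84.1 CPM in WT and 68.3 and 61.5 CPM in KO. Both KO libraries were below both WT libraries, but the difference did not pass the test (log2 fold change −0.30, SE 0.13, adjusted p = 0.0652, edgeR quasi-likelihood test). Against the WT libraries of the other ages it was −0.50 and passed (adjusted p = 0.00034). Which exons the conditional allele loses is not stated in the labels, so a count over the whole gene is only a partial check of them. At P30, P40 and P50 the log2 fold changes were −0.93, −0.79 and −0.69, and at P90 −0.15.

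At P60, 2578 genes (25.3% of those tested) were called higher in KO and 1827 (17.9%) lower, at an adjusted p below 0.05. Of these, 900 (8.84%) were at least 2-fold higher and 479 (4.71%) at least 2-fold lower. The median log2 fold change of all genes tested was 0.04, with quartiles of −0.35 and 0.45. Both KO libraries were above both WT libraries in 3705 genes and below both in 3141. In the comparison without the WT P60 libraries, 2468 genes (24.2%) were called higher and 2170 (21.3%) lower. Of the 2578 genes higher at P60, 1654 were also higher against the other WT ages and 217 were lower there. Of the 1827 lower genes, 1225 were also lower and 23 were higher. Among the genes tested, 367 had a WT mean below 5 CPM and passed only through KO, and 265 of these were called higher. Another 195 passed only through WT, and 100 of these were called lower. Counts over gene lists are to be read against the 25.3% and 17.9% of all genes.

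**Figure D1:**
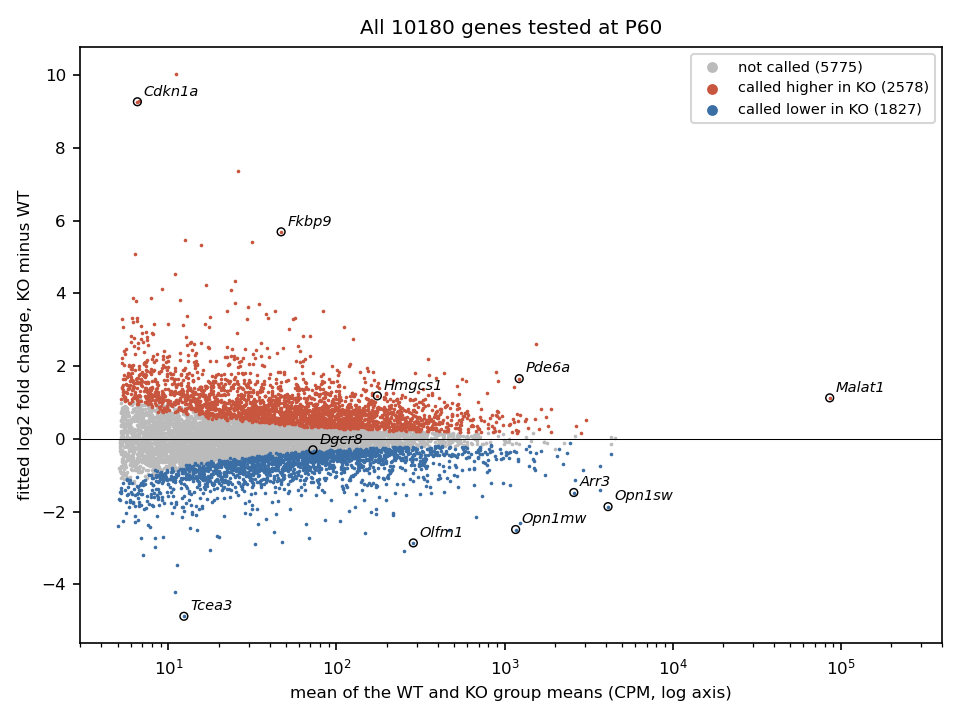
Each point is 1 of the 10180 genes tested at P60, with the mean of the WT and KO group means in CPM (log axis) across and the fitted log2 fold change, KO minus WT, upward. Red points are the 2578 genes called higher and blue points the 1827 called lower. Circled genes are named in the text. Opn1sw, Opn1mw and Arr3 lie low on the right, Malat1 alone at the far right, and Cdkn1a at the top left, where WT had 0 counts and the height depends on the prior count of the fit.

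Most genes of the cone's light-sensing machinery fell. Of the 23 cone phototransduction genes listed, all were tested, 16 were called lower and 2 higher, with a median log2 fold change of −0.51. Against the other WT ages, 17 were lower and 2 higher. Both opsins were among the 12 lower genes of smallest p. Opn1sw (chr6:29376671-29388468), the short-wavelength opsin, was at 6494 and 6454 CPM in WT and 1702 and 1850 CPM in KO. The libraries of a group lay close together and the groups far apart, 3.64-fold lower in KO (log2 fold change −1.87, SE 0.05, adjusted p = 1.07e-28). Opn1mw (chrX:74127464-74150760), the medium-wavelength opsin, was at 1915 and 2038 CPM in WT and 342 and 359 CPM in KO. It was 5.64-fold lower (log2 fold change −2.50, SE 0.09, adjusted p = 5.71e-26).

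The transducin subunits, which act after the opsin, had unlike values. Gnat2, the alpha subunit of cone transducin, was at 3821 and 3445 CPM in WT and 1678 and 1615 CPM in KO (log2 fold change −1.14). Gngt2, its gamma subunit, was at 1236 and 1183 CPM against 914 and 953 CPM (−0.37, adjusted p = 0.000931), a difference that was −0.03 with the WT P60 libraries left out. Gnb3, its beta subunit, was at 1307 and 1325 CPM in WT and 1403 and 1301 CPM in KO, and the groups overlapped (0.04, adjusted p = 0.676). The differences between the subunits were not tested.

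Pde6c, the catalytic subunit of the cone phosphodiesterase, was at 5421 and 5371 CPM in WT and 2056 and 1995 CPM in KO (log2 fold change −1.41, SE 0.07, adjusted p = 1.89e-21). Its inhibitory subunit Pde6h was at 1804 and 1726 CPM against 1173 and 1224 CPM (−0.56), but at 0.29 with the WT P60 libraries left out, a turn of direction that passed the test (adjusted p = 0.00033). The channel subunits Cnga3 and Cngb3 fell by 1.07 and 0.51 on the log2 scale. Kcnv2, a potassium channel subunit of photoreceptors, fell by 0.45.

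Genes that end the light response were also lower. Arr3, cone arrestin, was at 3827 and 3771 CPM in WT and 1319 and 1410 CPM in KO (log2 fold change −1.48, SE 0.07, adjusted p = 4.21e-22). Grk1, the opsin kinase, was at 3782 and 3747 CPM against 2109 and 2042 CPM (−0.86). Of the complex that speeds the transducin's return to rest, Rgs9 fell by 0.42, Gnb5 by 0.80 and its anchor Rgs9bp by 0.41 on the log2 scale. The calcium sensors Guca1a and Rcvrn fell by 0.87 and 0.82.

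Members that did not pass the test were Guca1b (−0.25), Slc24a2 (−0.17), Pdc (−0.15), Gucy2e (−0.12) and Gnb3. The 2 higher members were Gucy2f, a retinal guanylate cyclase, at 88.5 and 98.6 CPM in WT and 164 and 161 CPM in KO (0.79), and Gnb1, the beta subunit of rod transducin, at 309 and 337 CPM against 804 and 705 CPM (1.22). Both turned direction against the other WT ages, to −0.28 and −0.12.

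**Figure D2:**
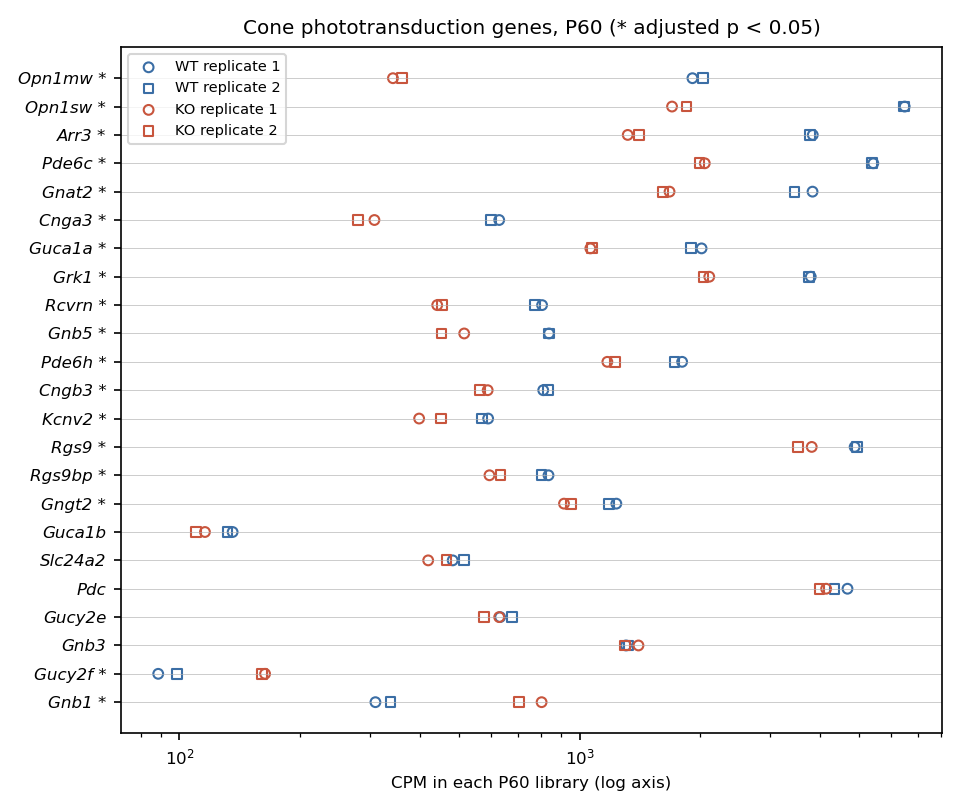
The 23 cone phototransduction genes (vertical axis, ordered by fold change) and their CPM in each of the 4 P60 libraries (log axis). Blue symbols are WT and red symbols KO, circles replicate 1 and squares replicate 2, and asterisks mark adjusted p below 0.05. From Opn1mw at the top to Gucy2e, KO symbols lie left of WT symbols, except that Gnb3 below them overlaps and Gucy2f and Gnb1 at the bottom are higher in KO.

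Structural genes of the outer segment, the membrane stack that holds the opsins, were called lower more often than all genes and higher about as often. Of 13 tested, 6 (46.2%, all genes 17.9%) fell and 3 (23.1%, all genes 25.3%) rose, with a median of −0.13. Prph2, which shapes the disc rims, was at 2667 and 2664 CPM in WT and 1981 and 2062 CPM in KO (log2 fold change −0.40), and its partner Rom1 fell by 0.47. Prom1, found at the sites of new discs, was at 952 and 860 CPM against 1304 and 1359 CPM (0.56). Cdhr1, a photoreceptor cadherin, and Impg2, a proteoglycan of the surrounding matrix, rose by 0.48 and 0.55. The counts against the other WT ages were 5 lower and 5 higher.

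Of 48 genes of the photoreceptor cilium and its transport, 16 (33.3%, all genes 17.9%) fell and 6 (12.5%, all genes 25.3%) rose. The median was −0.18. The counts were 17 and 7 against the other WT ages. Arl3 and Unc119, which carry lipid-bearing proteins to the outer segment, fell by 0.77 and 0.52 on the log2 scale. Cep290, a protein of the transition zone, was at 470 and 428 CPM in WT and 703 and 689 CPM in KO (0.63). The Usher syndrome genes Gpr98 and Myo7a rose by 0.86 and 1.16.

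At the synapse, 15 of 35 genes (42.9%, all genes 17.9%) fell and 14 (40%, all genes 25.3%) rose. Of these 14, 1 passed the filter only through KO. Lrtm1, a leucine-rich membrane protein, was at 776 and 821 CPM in WT and 126 and 156 CPM in KO (log2 fold change −2.50, SE 0.09, adjusted p = 2.82e-25). Cplx4, a complexin of the ribbon synapse, was at 1127 and 1080 CPM against 383 and 355 CPM (−1.58). Cabp4, which tunes the photoreceptor calcium channel, and the vesicle protein Sv2b were at −1.10 and −0.69. Pclo, a scaffold of the active zone, was instead at 182 and 243 CPM in WT and 498 and 479 CPM in KO (1.20). Against the other WT ages, 14 synapse genes were lower and 11 higher.

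Of 19 photoreceptor transcription factors, 6 (31.6%, all genes 17.9%) fell and 5 (26.3%, all genes 25.3%) rose, with 8 lower and 7 higher against the other WT ages. Thrb, the thyroid hormone receptor that sets medium-wavelength opsin identity, was at 949 and 934 CPM in WT and 582 and 595 CPM in KO (log2 fold change −0.68, adjusted p = 1.34e-09). Six6, a homeobox factor of the eye field, was at 162 and 165 CPM against 78.1 and 75.8 CPM (−1.09). Nr2e3, a rod factor, was at 74.9 and 83.3 CPM against 182 and 149 CPM (1.06), and Esrrb, an orphan nuclear receptor, at 44.0 and 45.2 CPM against 114 and 115 CPM (1.36). Against those ages Nr2e3 was at 0.38, Esrrb at 0.07 and Rorb at −0.04, from 0.64 at P60. In the retinoid cycle, which renews the chromophore, 5 of 13 genes (38.5%, all genes 17.9%) fell and 4 (30.8%, all genes 25.3%) rose. The counts were 7 and 5 against the other WT ages. At P60, 1 of the higher genes passed the filter only through KO and 1 of the lower only through WT. The reductase gene Rdh12 was at 363 and 383 CPM in WT and 201 and 189 CPM in KO (−0.94). The count of higher retinoid genes went to 1 without WT replicate 1 and to 1 without KO replicate 1.

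In the microRNA pathway more genes were called higher than lower, and 8 were called neither. Of 23 genes tested, 12 were higher and 3 lower, with a median of 0.48 (0.30 without WT replicate 1), and 11 and 3 with a median of 0.28 with the WT P60 libraries left out. The lower genes were 5 under each of the other filters on low counts. Dicer1, the nuclease that makes the final cut, was at 150 and 147 CPM in WT and 342 and 339 CPM in KO (log2 fold change 1.20, SE 0.09, adjusted p = 2.39e-14). Tnrc6b and Tnrc6a, scaffolds of the silencing complex, were at 1.01 and 0.86. Eif2c3, an Argonaute, was at 62.1 and 49.7 CPM against 113 and 113 CPM (1.01). Drosha was at 74.4 and 72.8 CPM against 108 and 97.4 CPM (0.48, adjusted p = 0.00191). Zcchc11, a uridylyl transferase, was at 0.76.

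The host transcript of smallest p was that of the miR-29 locus. A330023F24Rik (chr1:194976375-195037904, plus strand), the long RNA that holds Mir29b-2 and Mir29c, was at 453 and 412 CPM in WT and 2649 and 2643 CPM in KO (log2 fold change 2.61, SE 0.07, adjusted p = 3.87e-29). It was at 2.62 with the WT P60 libraries left out. Counts under the hairpin names rose with it. Mir29c was at 7.15 and 3.50 CPM in WT and 54.1 and 52.0 CPM in KO (3.30), and Mir29b-2 at 2.38 and 5.0 CPM against 30.5 and 31.4 CPM (3.07). Both hairpins lie inside the long RNA on the same strand (chr1:195037547-195037634 and chr1:195037040-195037120), and the counting does not tell reads of the hairpin from reads of the surrounding transcript, so these counts are not levels of mature microRNA.

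Of the 578 microRNA genes in the files, 10 were tested, 5 were higher and 1 was lower. The filter partly sets these counts, since 4 passed only through KO, 3 of them higher, and 1 only through WT, the lower one. Besides the miR-29 pair, Mir124a-1 was at 2.10 and 6.0 CPM in WT and 11.7 and 8.66 CPM in KO (log2 fold change 1.33, adjusted p = 0.0187), Mir5113 at 1.59 and Mir3078 at 0.76. The lower gene was Mir1892 (−2.04), at 22.5 and 11.6 CPM against 2.57 and 5.59 CPM. Of 32 tested host transcripts, 20 were higher and 3 lower, with a median of 0.57. Against the other WT ages this became 14 and 12. Huwe1 was at 434 and 473 CPM in WT and 739 and 745 CPM in KO (0.71, and 0.37 against the other ages). Meg3, an imprinted RNA, and Trpm3, the host of miR-204, were at 1.35 and 1.51 and turned to −0.39 and −0.45 against the other WT ages.

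The mature microRNAs of the miR-29 locus and of the sensory miR-183 cluster are shown because matches to their seeds are looked for below. The target lists that follow hold genes reported as targets and were not defined by the seeds. Sequences are from RefSeq on GRCm38.p6, 5′ to 3′, with the seed (bases 2 to 8) in capitals. The pair from the miR-29 locus shares 1 seed, and the members of the miR-183 cluster have related but different seeds.
miR-29b-3p: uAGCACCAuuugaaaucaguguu
miR-29c-3p: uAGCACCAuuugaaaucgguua
miR-182-5p: uUUGGCAAugguagaacucacaccg
miR-96-5p: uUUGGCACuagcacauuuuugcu
miR-183-5p: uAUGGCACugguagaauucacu

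Of 36 genes reported as miR-29 targets in other tissues, 18 were tested. Of these 18 tested, 11 were higher and 2 lower, with a median of 0.63, beside 25.3% and 17.9% of all genes. Without 1 member that passed the filter only through KO, 10 of 17 were higher and 2 lower, with a median of 0.48. Against the other WT ages, 9 were higher and 4 lower. The list holds several enzymes of DNA methylation, which moved both ways. Tet3, which oxidises methylcytosine, was at 73.4 and 97.0 CPM in WT and 229 and 245 CPM in KO (log2 fold change 1.48, SE 0.11, adjusted p = 3.62e-15). Dnmt3a, a methyltransferase, was at 220 and 210 CPM against 439 and 474 CPM (1.09, adjusted p = 3.98e-14). Tdg, which removes oxidised bases, was at 17.9 and 19.2 CPM against 39.8 and 50.8 CPM (1.29). Tet1, of the same family as Tet3, was lower (−0.67, adjusted p = 0.00242), at 53.6 and 48.6 CPM against 25.7 and 38.1 CPM, and Tet2 was at 0.27. Both were chosen after their values were seen. Mcl1, a survival factor, was lower (−0.58), at 177 and 158 CPM against 102 and 122 CPM.

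A match to the miR-29 seed, TGGTGCT, was looked for in the longest annotated 3′ UTR of each gene, on the transcript strand. Tet3 held 8, Tet1 7, Dnmt3a 5, Tet2 5, Tdg 3 and Mcl1 1. Windows of 30 bases show 1 match per gene (match in capitals, GRCm38, GENCODE M21 transcripts). They are Tet3 at chr6:83364200-83364229 (minus strand), Dnmt3a at chr12:3908561-3908590 (plus), Tdg at chr10:82649494-82649523 (plus) and Mcl1 at chr3:95661848-95661877 (plus). A match is a description of the sequence, and both genes of this list that fell, Tet1 and Mcl1, held it.
Tet3: cttccctctttTGGTGCTgtctttgtggac
Dnmt3a: cgacttcataaTGGTGCTttcaaaacagcg
Tdg: cctgtttaaacTGGTGCTgtgtacatggga
Mcl1: agtcttaaccaTGGTGCTattcactgggtt

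Of 18 genes reported as targets of miR-182, miR-183 or miR-96, 11 were higher and 0 lower, with a median of 0.51. Without 1 member that passed the filter only through KO, 10 of 17 were higher and 0 lower, with a median of 0.48. Against the other WT ages, 10 were higher and 1 lower, and without WT replicate 1, 7 were higher. Nr3c1, the glucocorticoid receptor, was at 160 and 136 CPM in WT and 261 and 280 CPM in KO (log2 fold change 0.87). Clock, a circadian factor, was at 287 and 277 CPM against 370 and 389 CPM (0.43). The UTR of Clock held 2 matches to the miR-182 seed, TTGCCAA, as did that of Foxo3, also higher (0.48). Those of Mtss1, Rasa1, Fbxw7 and Cttn held 2 as well, and these genes were called neither higher nor lower. The window below is from Clock, at chr5:76216429-76216458 (minus strand).
Clock: gaaagagtataTTGCCAAatgctaacaagc

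Over all genes tested whose longest 3′ UTR had at least 1000 bases (6462 genes), 1055 held the miR-96 match, GTGCCAA. Of these 39.6% were called higher and 12.1% lower, with a median of 0.27, against 29.4%, 17.8% and 0.09 in the 5407 genes without it. For the miR-182 match the shares were 39.6% higher and 13.3% lower with it and 28.8% and 17.8% without. For the miR-183 match, GTGCCAT, they were 36.4% and 13.4% against 29.8% and 17.6%. For the miR-29 match they were 35.1% and 15.6% against 29.7% and 17.3%. Genes with a match had longer UTRs (medians of 2969 and 2192 bases for miR-96), and the part of UTR length in these shares was not tested.

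Of 19 genes known as targets of miR-124, 10 passed the test as higher and 5 as lower, with a median of 0.55 (10 and 4 with the WT P60 libraries left out). Iqgap1, a scaffold of the cortex, was at 45.9 and 41.9 CPM in WT and 150 and 125 CPM in KO (log2 fold change 1.64). Itgb1, an integrin, was at 58.1 and 51.6 CPM against 154 and 146 CPM (1.45). The lactate transporter Slc16a1 was lower, at 686 and 616 CPM against 379 and 376 CPM (−0.79).

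Of 25 tested genes of p53 and apoptosis, 13 were higher and 3 lower, with a median of 0.61, and the counts were 13 and 3 with the WT P60 libraries left out. Cdkn1a and Phlda3 passed the filter only through KO, where they are high, and 1 member only through WT. Of the other 22 genes, 11 were higher and 3 lower, with a median of 0.58. Cdkn1a (chr17:29090976-29100727), the cell cycle inhibitor p21, had 0 counts in both WT libraries and 12.0 and 14.1 CPM in KO. Taken against a floor of 3 counts over both WT libraries, it was at least 89.3-fold higher in KO. It was below 5 CPM in all other WT libraries, at 0 and 0 CPM in KO at P30, and at 52.4 and 56.0 CPM in KO at P90. Phlda3, a p53-induced brake on AKT, was at 0.286 and 0.40 CPM in WT and 17.7 and 6.93 CPM in KO (log2 fold change 5.07). Eda2r, a death receptor of the p53 response that is not on this list, had 0 counts in WT and 14.5 and 12.1 CPM in KO, at least 90.7-fold higher. It too passed the filter only through KO.

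Further along the pathway, Zmat3, an RNA-binding p53 target, was at 14.9 and 14.3 CPM in WT and 60.2 and 58.1 CPM in KO (2.02, adjusted p = 1.59e-10). Plk2, a stress kinase, was at 11.2 and 8.30 CPM against 43.7 and 47.7 CPM (2.23), and Trp53inp1 at 128 and 115 CPM against 255 and 277 CPM (1.13). In each of these the libraries of the 2 groups were far apart, but list members were named for small p.

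Cholesterol synthesis had the highest median of the 23 gene lists (cell type markers not counted), 0.92. Of 24 genes tested, 15 were higher, 1 lower and 8 neither, and 16 and 1 with the WT P60 libraries left out. Among them, 2 passed the filter only through KO, where they are high. Of the other 22, 13 were higher and 1 lower, with a median of 0.82. Insig1, the sterol-sensing retention factor, was at 22.9 and 15.6 CPM in WT and 98.4 and 106 CPM in KO (log2 fold change 2.40, SE 0.17, adjusted p = 3.03e-15). Srebf2, the transcription factor that drives the pathway, was at 27.1 and 22.7 CPM against 105 and 94.6 CPM (2.00). Hmgcs1, which makes the precursor HMG-CoA, was at 109 and 106 CPM against 225 and 261 CPM (1.18). Sc4mol, a sterol methyl oxidase, was at 51.9 and 47.7 CPM against 144 and 156 CPM (1.59), and the demethylase Cyp51 at 73.3 and 73.7 CPM against 178 and 172 CPM (1.25). For none of these 5 did the groups overlap, but list members were named for small p. Over all 10180 genes, both KO libraries were above both WT libraries in 3705 and below both in 3141.

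Genes of the pathway are known to carry sterol regulatory elements. The promoter window of Hmgcs1, among the higher genes of this list, is shown because no other window of the list held the letters searched for. The letters TCACNCCAC, on either strand, were present in 1 of 17 windows matched for this list, that of Hmgcs1, and in 1.24% of the 32851 windows of all genes. Each window runs from 250 bases before to 50 after the annotated start (RefSeq, GRCm38.p6, chr13:119690101-119690400, plus strand), with the match in capitals. No match elsewhere says only that these letters are not in those windows.
Hmgcs1: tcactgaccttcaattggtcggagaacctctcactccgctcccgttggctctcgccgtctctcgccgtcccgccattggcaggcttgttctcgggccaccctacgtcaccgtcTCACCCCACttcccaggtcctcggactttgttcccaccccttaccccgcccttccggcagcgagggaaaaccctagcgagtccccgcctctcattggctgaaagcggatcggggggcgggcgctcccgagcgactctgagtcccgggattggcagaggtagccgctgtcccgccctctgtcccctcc

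Genes of fuel use moved both ways. Of 30 genes for fatty acids, ketone bodies and branched-chain amino acids, 16 were higher and 4 lower, with a median of 0.55. The counts were 17 and 3 with the WT P60 libraries left out. Without 1 member that passed the filter only through KO, 15 of 29 were higher and 4 lower, with a median of 0.47. Bcat1, the aminotransferase for branched-chain amino acids, was at 475 and 435 CPM in WT and 1383 and 1359 CPM in KO (log2 fold change 1.59, SE 0.07, adjusted p = 2.09e-22). Oxct1, which lets a cell burn ketone bodies, was at 186 and 189 CPM against 569 and 626 CPM (1.67, adjusted p = 2.49e-20). Acsl1, which activates fatty acids, was at 219 and 217 CPM against 497 and 540 CPM (1.25). Acadvl and Cpt1a, of fatty acid oxidation, were at 1.09 and 0.92.

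Of 26 glycolysis genes, 11 (42.3%, all genes 17.9%) fell and 6 (23.1%, all genes 25.3%) rose. Of these 6, 1 passed the filter only through KO. The median was −0.09, and the counts were 10 lower and 7 higher against the other WT ages. Hk2, the hexokinase of photoreceptor aerobic glycolysis, was at 1377 and 1336 CPM in WT and 610 and 567 CPM in KO (log2 fold change −1.21, adjusted p = 1.73e-16). The enolase Eno2 was at 755 and 760 CPM against 317 and 285 CPM (−1.33), and the pyruvate kinase Pkm at 2401 and 2349 CPM against 1740 and 1693 CPM (−0.47). Txnip, which restrains glucose uptake, was at 2.48 and 2.10 CPM in WT and 51.1 and 43.6 CPM in KO (4.35, adjusted p = 1.04e-15). Txnip passed the filter only through KO, where it is high. In KO it was at 3.67 to 8.11 CPM from P30 to P50 and at 128 and 111 CPM at P90.

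Of 77 genes of oxidative phosphorylation, 18 (23.4%, all genes 17.9%) were lower and 5 (6.49%, all genes 25.3%) higher, with a median of −0.12, but 7 were lower and 18 higher with the WT P60 libraries left out. Without WT replicate 1, 7 were lower, and under each of the other filters on low counts and by DESeq2, 1 was higher. Of 75 ribosomal protein genes, 10 (13.3%, all genes 17.9%) were lower and 2 (2.67%, all genes 25.3%) higher. Against the other WT ages, 6 were lower and 5 higher. Without WT replicate 1, 2 ribosomal genes were lower and 0 higher, and without KO replicate 1, 6 were lower. The ribosomal gene of smallest p was Rps15a, at 83.1 and 82.9 CPM against 37.4 and 38.1 CPM (−1.14). Ribosomal proteins have many near-identical pseudogenes among which reads can be split.

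Stress genes moved both ways. Of 34 genes of the unfolded protein and integrated stress response, 12 (35.3%, all genes 25.3%) were higher and 7 (20.6%, all genes 17.9%) lower, against 18 and 1 with the WT P60 libraries left out, and without WT replicate 1, 6 were higher. The balance of this list turned or levelled under the other filters, with 8 higher and 10 lower with no filter, 9 and 10 with edgeR's filter and 10 and 10 at a mean of 1 CPM, and DESeq2 gave 8 and 8. The chaperone Hsp90b1 was at 1121 and 1073 CPM in WT and 1586 and 1507 CPM in KO (log2 fold change 0.49), and Pdia3 and Dnajb9 were at 0.74 and 0.81. Hspa5, the main chaperone of the endoplasmic reticulum, was at 1236 and 1100 CPM against 1071 and 1037 CPM (−0.15, adjusted p = 0.0837). WT P60 was the highest of the 5 WT groups for Hspa5, the others lying between 513 and 817 CPM, and against them the difference was 0.72. Of 21 cytosolic heat shock genes, 6 (28.6%, all genes 25.3%) were higher and 9 (42.9%, all genes 17.9%) lower at P60. The median was −0.30, and −0.10 without KO replicate 2. With the WT P60 libraries left out, 11 were higher and 1 lower. Of these, Hspa2 was at 13.0 and 8.0 CPM against 37.1 and 35.7 CPM (1.79) and Hsp90ab1 was at 0.46. Lower members were Hspa4l, at 821 and 748 CPM against 609 and 614 CPM (−0.36), and Dnaja1, at 131 and 140 CPM against 90.7 and 95.0 CPM (−0.54), which were at −0.12 and −0.06 against the other WT ages.

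Of 14 immediate early genes tested, 7 were higher and 2 lower (8 and 2 against the other WT ages). Jun was at 25 and 27 CPM in WT and 70.7 and 62.2 CPM in KO (1.35), Jund at 20.8 and 20.6 CPM against 50.8 and 52.8 CPM (1.32), and Egr1 at 30.6 and 41.6 CPM against 86.2 and 76.7 CPM (1.17). Of 13 genes of leukemia inhibitory factor and STAT3 signalling, a survival path of the injured retina, 7 were higher and 1 lower, with the same counts against the other WT ages. Lifr, the receptor, was at 113 and 100 CPM against 326 and 329 CPM (log2 fold change 1.62, adjusted p = 1.36e-17), and Stat3 at 73.8 and 73.7 CPM against 165 and 170 CPM (1.18). Clu and Tnc were both at 1.75. Of 8 interferon response genes tested, 3 were lower and 0 higher (2 and 0 against the other WT ages).

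In autophagy and the lysosome, 8 of 41 genes (19.5%, all genes 17.9%) fell and 7 (17.1%, all genes 25.3%) rose, with a median of −0.03, and 4 and 13 with the WT P60 libraries left out. Gabarap, which coats forming autophagosomes, was at 34.9 and 40.3 CPM in WT and 154 and 148 CPM in KO (2.01, adjusted p = 4.25e-14). Npc2, which moves cholesterol out of the lysosome, was at 36.1 and 51.3 CPM against 111 and 97.6 CPM (1.26), whereas its partner Npc1 was at 92.9 and 97.4 CPM against 54.3 and 67.1 CPM (−0.64).

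Some of these counts moved by over 1.5 times when 1 library was left out. Without WT replicate 1, 5 autophagy genes were lower. Without WT replicate 2, 3 genes of oxidative phosphorylation were higher, 1 interferon gene was higher, and 0 immediate early genes and 0 cholesterol genes were lower. Without KO replicate 1 the lower genes were 4 of the unfolded protein response, 3 miR-124 targets, 1 miR-29 target, 1 immediate early gene, 1 interferon gene and 0 of cholesterol synthesis, and 3 of oxidative phosphorylation were higher. Under the filters other than a mean of 1 CPM, and by DESeq2, 7 targets of the miR-183 cluster were higher, as without WT replicate 1. Without KO replicate 2 the median was −0.23 for the outer segment and −0.10 for autophagy, 3 heat shock genes were higher, and 1 host transcript, 0 immediate early genes and 2 cholesterol genes were lower.

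**Figure D3:**
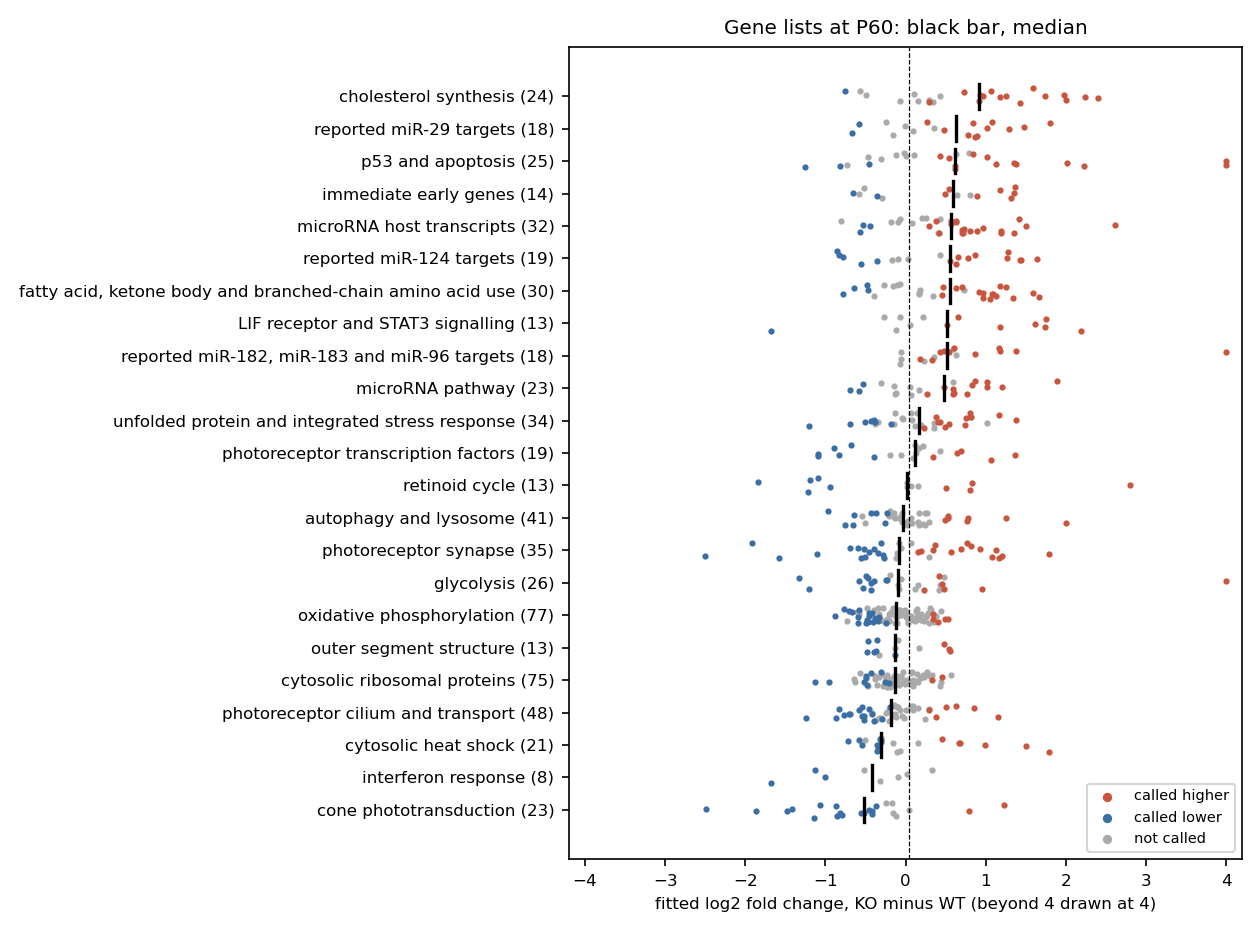
Fitted log2 fold change at P60, KO minus WT (horizontal axis, values beyond 4 drawn at 4), of the tested members of each gene list, with the number tested in brackets. Red points were called higher, blue points lower and grey points neither. Black bars are list medians and the dashed line is the median of all genes, 0.04. Cholesterol synthesis has the rightmost median (0.92) and cone phototransduction the leftmost (−0.51).

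Outside the lists, the genes higher in KO with the smallest p included Malat1, a nuclear long RNA and the gene with most counts in each of the 20 libraries. Malat1 (chr19:5795690-5802672) was at 54870 and 53073 CPM in WT and 125070 and 110610 CPM in KO (log2 fold change 1.13, adjusted p = 1.85e-19). Golgb1, a tether of the Golgi, was at 383 and 396 CPM against 1465 and 1297 CPM (1.83). Stom, a membrane scaffold, was at 124 and 125 CPM against 586 and 569 CPM (2.21), and Ankrd52, a subunit of protein phosphatase 6, at 20.7 and 26.3 CPM against 214 and 184 CPM (3.08). Ssx2ip, Hook3 and Atp8a2, the last a lipid flippase of photoreceptors, were at 1.64, 1.59 and 1.82.

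Fkbp9, a prolyl isomerase of the endoplasmic reticulum, was at 2.57 and 0.90 CPM in WT and 91.1 and 92.8 CPM in KO (log2 fold change 5.70, SE 0.24, adjusted p = 9.79e-23). In the other WT libraries it was at 18.4 to 35.8 CPM, and against those the difference was 1.78. Fkbp9 passed the filter only through KO, where it is high. Zdbf2, an imprinted gene, was at 11.1 and 15.9 CPM against 172 and 135 CPM (3.51, and 1.55 with the WT P60 libraries left out). Both stayed higher in KO against either set of controls, with a size that depended on it.

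Among the largest increases, Mybph, of the myosin-binding proteins, had 0 counts in WT and 20.4 and 24 CPM in KO, at least 152-fold higher. Kif19a, a kinesin of ciliary tips, was at 0.477 and 0.10 CPM in WT and 52.7 and 50.6 CPM in KO (log2 fold change 7.36). The tetraspanin Cd82 was at 5.46, Cd8a, known as a co-receptor of T cells, at 5.42, and Rcor2, a co-repressor, at 5.33. All of these were higher against the other WT ages too, at 4.41 for Mybph, 4.18 for Kif19a, 3.98 for Cd82, 3.33 for Cd8a and 5.60 for Rcor2. Mybph and Kif19a passed the filter only through KO, so the filter partly sets this ranking.

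Lower genes of smallest p outside the lists were Olfm1, a secreted olfactomedin, at 484 and 524 CPM in WT and 68.7 and 69.5 CPM in KO (log2 fold change −2.86, SE 0.10, adjusted p = 5.68e-26), and Lynx1, a modulator of nicotinic receptors, at 447 and 452 CPM against 53.5 and 52.9 CPM (−3.08). Kcne2, a potassium channel subunit, was at 2047 and 2045 CPM against 442 and 380 CPM (−2.32). Fam19a3, a secreted peptide, was at 1070 and 1145 CPM against 250 and 244 CPM (−2.16). The junction protein Jam3, the dynein chain Dnahc9 and BC048943 were at −1.93, −2.03 and −2.04.

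The largest decreases were in Tcea3, an elongation factor, at 21.6 and 26.4 CPM against 0.321 and 1.20 CPM (−4.88), and Rab37, a small GTPase, at 24.8 and 16.8 CPM against 1.45 and 0.799 CPM (−4.21). They were followed by Ccdc155 (−3.47), Fbxw21 (−3.19), Sprn (−3.05), Tmem141 (−2.98), Lrrc4 (−2.89) and Plcz1 (−2.84). All 8 were lower against the other WT ages as well, at −1.96 for Ccdc155 to −4.35 for Tcea3. Tcea3 and Rab37 passed the filter only through WT.

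The P60 difference was then tested against the average of the differences between KO and WT at P30, P40, P50 and P90. It was higher in 1661 genes (16.3%) and lower in 1133 (11.1%). In cone phototransduction, 16 of 23 genes had a P60 difference below the mean of the other ages and 2 above it. This contrast uses the WT P60 libraries, whose summed cone markers were the highest of all groups. At P90 alone, the differences of Opn1sw, Opn1mw and Pde6c were at least as low as at P60. Opn1sw was at −0.60, −0.69, −0.70 and −1.94 at P30, P40, P50 and P90, and its P60 value was 0.88 below their mean (difference −0.88, SE 0.06, adjusted p = 2.15e-15). Opn1mw was higher in KO at P30 and P40 (0.38 and 0.66), at −0.06 at P50 and at −7.05 at P90. In KO it went from 1297 and 1315 CPM at P50 to 342 and 359 CPM at P60 and 13.1 and 7.30 CPM at P90. Pde6c followed this order with 0.33, 0.07, −0.12 and −2.70 at those ages, and −1.41 at P60.

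For some genes the WT P60 libraries lay far from the other WT libraries. Ttn, the giant muscle protein, was at 4.86 and 2.0 CPM in WT P60, 53 and 40.2 CPM in KO P60 and 104 to 281 CPM in the 8 other WT libraries. Its log2 fold change was 3.74 at P60, between −2.67 and −0.56 at the other ages, and −1.92 with the WT P60 libraries left out. Among the P60 libraries it passed the filter only through KO. Snhg11, Meg3, Kcnq1ot1, Csprs and Gnb1 likewise turned direction against the other WT ages. Polr2a, the largest subunit of RNA polymerase II, was at 74.9 and 87.4 CPM against 263 and 239 CPM (1.63) and kept its direction, at 0.74. Genes whose P60 difference was below the mean of the other ages included Osbpl3 (−2.06 at P60), Kcnab2 (−1.49), Kctd10 (−1.18) and Prnp (−0.90). All of these kept their direction against the other WT ages, at −0.95, −0.86, −0.38 and −0.25.

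**Figure D4:**
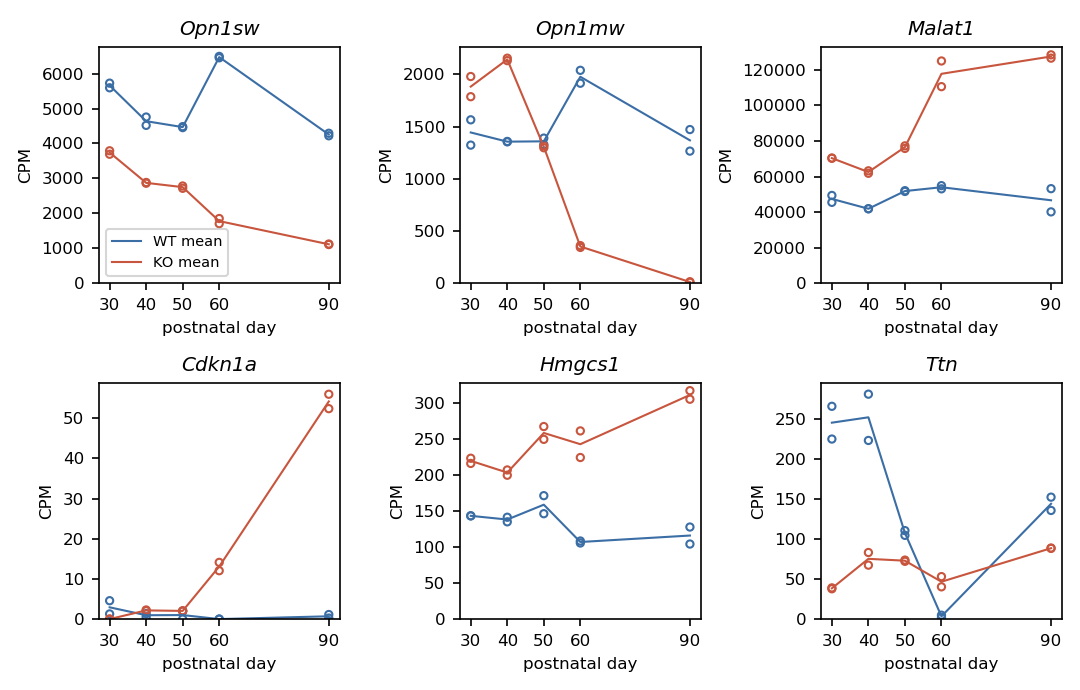
CPM of 6 genes by postnatal day, with 1 circle per library and lines through the group means, WT in blue and KO in red. Opn1sw and Opn1mw show the KO lines below WT at P60, Malat1 and Cdkn1a the rise in KO by P60 and P90, Hmgcs1 the KO line above WT at every age, and Ttn the low WT P60 libraries (4.86 and 2.0 CPM) between higher WT ages.

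Markers of the sorted cells were checked last. Of 12 cone markers 10 were lower and 0 higher (median −0.81), and 9 were lower and 2 higher with the WT P60 libraries left out. Their summed level was 28336 and 27830 CPM in WT and 12299 and 12465 CPM in KO. The other WT groups had means of 18516 to 21164 CPM, so that WT P60 was the highest and KO P60 was below all WT groups. In bulk samples, fewer cells of a type and less RNA per cell cannot be told apart.

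Rod markers moved both ways, 10 of 14 higher and 4 lower, with sums of 12469 and 12342 CPM in WT and 14078 and 13657 CPM in KO. Pde6a, the rod phosphodiesterase, was at 576 and 601 CPM in WT and 1873 and 1837 CPM in KO (log2 fold change 1.66, adjusted p = 2.17e-24). It was higher at every other age too (0.25 to 1.09) and at 0.92 with the WT P60 libraries left out. Sag, rod arrestin, was lower (−0.75), at 4703 and 4553 CPM against 2750 and 2764 CPM. Gnat1 and Pde6b, at 0.76 and 0.71, turned to −0.09 and −0.07 with the WT P60 libraries left out, and in that comparison 2 rod markers were higher and 7 lower.

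Most amacrine, Mueller glia and horizontal cell markers tested were called higher in KO than in WT P60. Against the other WT ages most were not. For bipolar and ganglion cells 35.7% and 50% were called higher at P60, and 14.3% and 12.5% lower. The shares of all genes were 25.3% higher and 17.9% lower. All 7 amacrine markers tested were higher (median 1.70, sums of 120 and 122 CPM against 269 and 310 CPM), but 6 were lower and 1 higher with the WT P60 libraries left out, where the other WT groups had mean sums of 335 to 472 CPM. For Mueller glia 8 of 10 were higher and 0 lower (sums of 768 and 764 CPM against 1011 and 1061 CPM), and 0 and 6 against the other ages. For bipolar cells the counts were 5 higher and 2 lower of 14 (607 and 648 CPM against 726 and 672 CPM), and 1 and 8. For horizontal cells they were 5 and 0 of 7 (151 and 165 CPM against 262 and 250 CPM), and 2 and 2, and for ganglion cells 4 and 1 of 8 (215 and 215 CPM against 376 and 333 CPM), and 2 and 3. All 3 vessel markers tested were higher (29.8 and 28.3 CPM against 71.3 and 96.4 CPM), and 0 higher and 1 lower against the other ages. The filter partly sets these counts. Passing only through KO were 2 vessel, 2 horizontal, 1 amacrine and 1 ganglion marker, all called higher. The lower ganglion marker passed only through WT. Of markers with both means at 5 CPM or more, 6 of 6 amacrine, 3 of 5 horizontal, 3 of 6 ganglion and 1 of 1 vessel were higher. Without WT replicate 1, and likewise without KO replicate 1, 3 bipolar and 3 horizontal markers were higher. The part of these cells in the gene differences was not tested.

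Some named markers kept their direction against either set of controls, whereas Prox1, Slc4a3 and Nefm of the same cell types turned. Against the other ages, horizontal cell markers were 2 higher and 2 lower, and ganglion cell markers 2 and 3. Onecut2, a horizontal cell factor, was at 3.53 and 3.0 CPM in WT and 32.4 and 26.6 CPM in KO (log2 fold change 3.17, and 0.51 against the other ages). Onecut2 passed the filter only through KO. Lhx1 was at 3.07 and 2.24, and Nefh, a neurofilament of large neurons, at 48.4 and 42.1 CPM against 179 and 147 CPM (1.84 and 1.65). Of 12 microglia markers, Aif1 and Tyrobp were at 0 in all 4 libraries and the others had counts in at least 1, Csf1r for example at 1.33 and 1.10 CPM in WT and 3.21 and 3.20 CPM in KO and C1qa at 2.10 and 1.70 CPM against 0.161 and 1.20 CPM. The summed microglia markers were at 18.8 and 18.5 CPM in WT and 19.0 and 23.2 CPM in KO. The erythrocyte markers of the files were at 0 in all 4 libraries, and no pigment epithelium, erythrocyte or lens marker reached the level for testing. Astrocytes had 1 of 6 markers tested, Aqp4, and microglia 1 of 12, which was called neither higher nor lower.

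Xist, the RNA of the inactive X chromosome, was at 587 and 645 CPM in WT and 1642 and 1676 CPM in KO (log2 fold change 1.43), and the Y-linked genes Ddx3y, Uty, Kdm5d and Eif2s3y were above 40 CPM in all 4 libraries. At other ages Xist was, for example, at 12.8 and 13.3 CPM in WT P40, 151 and 155 CPM in KO P90 and 1829 and 1280 CPM in WT P90. Whether the 2 libraries of a group shared animals was not tested. The labels give no sex. Of 5 sex-linked genes tested, 2 were higher and 2 lower, and 0 were lower without WT replicate 1 or without KO replicate 1. The part of the mix of sexes in the differences was not tested.

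**Figure D5:**
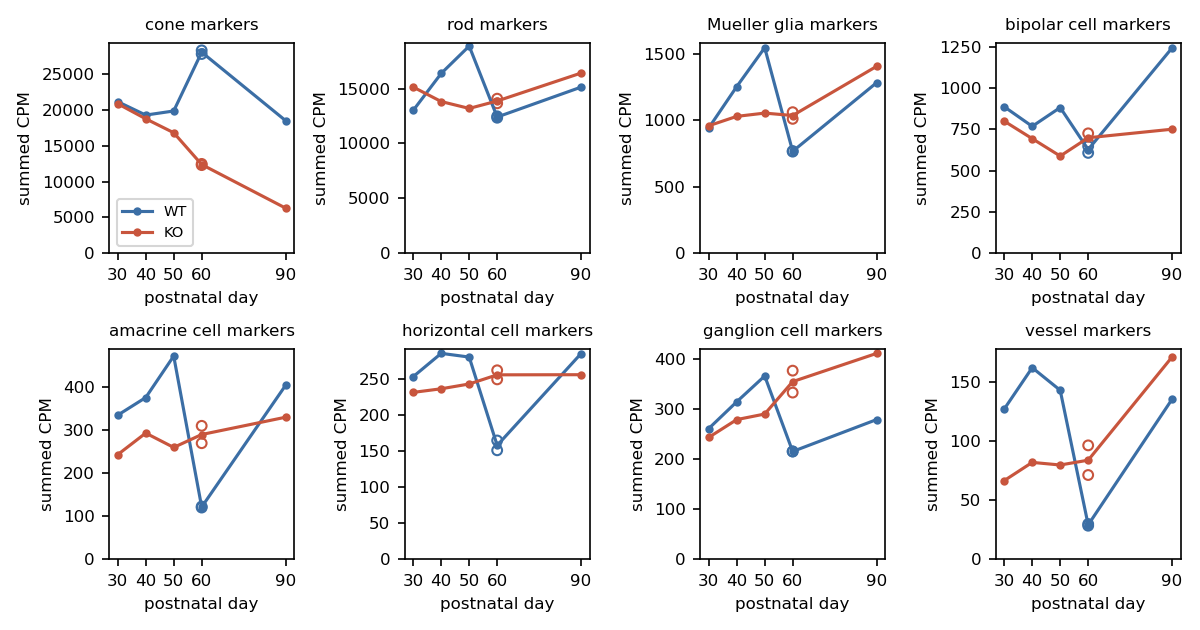
Summed CPM of the markers of 8 cell types (1 panel each) by postnatal day, with group means as filled points joined by lines, the 4 P60 libraries as open circles, WT in blue and KO in red. In the cone panel the WT line peaks at P60 (28083 CPM) while the KO line falls to 12382 CPM. In the amacrine, horizontal, ganglion and vessel panels the WT line dips at P60.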

How the data were processed

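The authors deposited unscaled counts, as whole numbers, for each gene symbol in each library. Per the labels' protocols, RNA of sorted cones was extracted with Trizol or the PicoPure kit and 150 ng went into a ScriptSeq kit, and libraries were sequenced in pools of 4. CASAVA 1.8.0 and mm10 (GRCm38) were used, per the submitters' processing notes. Aligner, counter, annotation and strand setting: not given in the sources used here. Reads of antisense or overlapping genes therefore cannot be separated.

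Left out were 2 unnamed entries with 14 counts in all. All 20 libraries were fitted with edgeR 4.0.16 (R 4.3.3, limma 3.58.1), TMM factors and 1 coefficient per group, on genes with a mean of at least 5 CPM over the 4 P60 libraries. The quasi-likelihood test gave p-values adjusted by Benjamini and Hochberg over the 10180 genes, called below 0.05. The biological coefficient of variation was 0.117. The 2 libraries of a group varied 9.02 (WT P60) and 1.48 (KO P60) times as much as sampling alone gives, so none is a copy of another. This does not show that they came from separate animals. The script was tested on simulated data. Intervals and floors cover counting error only, the floor being 3 counts.

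Genes and gene lists were chosen with earlier results of these data known. Named by rule were the 12 genes of smallest p each way with separated groups, the 8 of largest change each way, the 8 each way in the comparison with other ages, up to 5 members per list, all phototransduction genes, called microRNA genes, Dgcr8, Drosha and Dicer1. A few of these genes are left out of the text. Clone-style names (Rik, Gm, LOC) were skipped except in lists. Of the 10180 genes, 9273 matched GENCODE M21 by symbol, 801 by an older symbol and 106 not at all, and 96.1% had an annotated 3′ UTR. Alternatives were RLE factors, factors from genes of at least 32 CPM, other filters, only the P60 libraries, DESeq2 1.42.0, a replicate block and each P60 library left out. Tables and plots used Python 3.11.15, pandas 2.3.3, numpy 2.4.6 and matplotlib 3.10.9.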

Additional observations from a re-analysis of the deposited data

Results flagged for a closer look

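The P60 difference between KO and WT differed from the mean difference at the other 4 ages, by the test of that difference, in 1661 genes upward and 1133 downward. The 8 genes of smallest p that were higher at P60 and not named for another reason were Ttn (5.16 on the log2 scale), Snhg11 (2.70), Gnb1 (1.46), Meg3 (1.99), Kcnq1ot1 (1.55), Csprs (5.26), Polr2a (1.51) and Ryr3 (2.55). The 8 lower were Hspa5 (−0.96), Eno2 (−1.01), Osbpl3 (−1.50), Kcnab2 (−1.21), Cpe (−0.76), Prnp (−0.90), Kctd10 (−1.36) and Cplx4 (−0.95). With P90 as the only other age, 743 genes were higher and 282 lower. Counts over the microRNA hairpins Mir182, Mir183 and Mir96, which were too few for the test, came to 24 and 65 in the KO P60 libraries against 0 and 1 in the WT P60 libraries, most of the 65 being under Mir96 (49).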

How the results depend on the processing

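Of the 212 named genes besides Dgcr8, 189 kept their direction and their side of the threshold in every alternative other than that without the WT P60 libraries. Without a filter and with edgeR's own filter, 4080 and 4087 genes were higher, 3543 and 3506 were called and at least 2-fold changed (2801 and 2775 higher, 742 and 731 lower), and the comparison with the other ages gave 7736 and 7462 genes (4168 and 4043 higher, 3568 and 3419 lower). At a mean of at least 1 CPM these were 2122 genes of at least 2-fold (1424 higher) and 4218 against the other ages (2033 lower). Removing the filter moved the median of all genes from 0.04 to −0.07. With P90 as the only other age, 1025 genes differed (743 higher, 282 lower). With the WT P60 libraries left out, 914 genes were called and at least 2-fold changed, 402 of them higher. Dgcr8 passed the threshold with RLE factors (−0.33), factors from abundant genes (−0.36), no filter (−0.42), edgeR's filter (−0.41), a mean of 1 CPM (−0.41) and the WT P60 libraries left out (−0.50). DESeq2 called 1864 genes higher and 1493 lower, and the fit of the P60 libraries alone 2069 and 1759. Leaving out 1 library at a time, where the lone library of a group is assumed to vary like the other groups, gave 3517 to 3848 calls (2126 to 2252 higher, 1391 to 1596 lower), 1332 to 1545 of at least 2-fold (861 to 939 and 459 to 606), 2153 to 2450 against the other ages (1322 to 1416 and 829 to 1034), and −0.38 to −0.23 for Dgcr8. With a replicate block, 2533 genes were higher and 1797 lower, and the numbers did not pair the samples (r = −0.03 between the replicate differences of the genotypes over 10180 genes).

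With the WT P60 libraries left out, the direction turned for Ttn (−1.92), Snhg11 (−0.093), Gnb1 (−0.12), Meg3 (−0.39), Kcnq1ot1 (−0.034), Csprs (−1.92), Hspa5 (0.72), Rorb (−0.043), Trpm3 (−0.45), H2-K1 (0.13), Gnat1 (−0.090), Pde6b (−0.07), Gpr37 (−0.038), Vim (−0.072), Dkk3 (−0.25), Aqp4 (−0.60), Slc1a3 (−0.72), Prkca (−0.33), Trpm1 (−0.32), Grik1 (−0.52), Calb2 (−0.38), Gad1 (−0.53), Tfap2b (−0.67), Gad2 (−0.89), Prox1 (−0.36), Slc4a3 (−0.095), Nefm (−0.71), Kdr (−0.48), Flt1 (−0.47), Rgs5 (−0.35), Pde6h (0.29), Gucy2f (−0.28) and Pdc (0.081). Gnb3, not called, was at −0.0038 with DESeq2, −0.018 with factors from abundant genes, −0.0070 in the P60 libraries alone, −0.016 without KO replicate 1 (0.093 without KO replicate 2), and −0.067, −0.064 and −0.074 with edgeR's filter, a mean of 1 CPM and no filter. The cause was not tested. With 2 libraries per group, a gene of few counts can miss the threshold at this depth.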
